A study of Mus musculus with 36 samples.

Results

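The DEAD and DEAH box RNA helicases other than Ddx3x and its Y-linked copy were followed through input, monosome and polysome RNA of the embryonic mouse cortex. Members were chosen by symbol alone, as every counted gene named Ddx or Dhx followed by a number and at most 1 letter. The rule found 51 genes of 55487, 35 of them Ddx and 16 Dhx. By their best-known work they fall into 16 genes of ribosome biogenesis, 10 of splicing, 6 of translation initiation and mRNA fate, 4 of transcription or many tasks, 3 of mRNA export, 3 of viral RNA sensing, 3 of the germline, 2 of mitochondria and 4 others.

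The samples were cortices of female embryos at E14.5, each a pool of 2 embryos. In the LoF cross, conditional heterozygotes (cHet) were Emx1-Cre/+;Ddx3x lox/+ and controls were Ddx3x lox/+ without Cre. In the T532M cross, cHet were Emx1-Cre/+;Ddx3x-T532M lox/+ and controls were Emx1-Cre/+. Cre was therefore present only in cHet of the LoF cross but in both genotypes of the T532M cross, so that in the LoF cross Cre and the loss of Ddx3x cannot be told apart. Emx1-Cre acts in dorsal telencephalic progenitors and their progeny, and other cells of a cortex keep their alleles. Each cross, genotype and fraction had 3 libraries, 36 in all.

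Most of these proteins use ATP to unwind short RNA duplexes or to strip proteins from RNA. They work from the nucleus to the ribosome: some reshape the spliceosome or the precursors of the ribosome, others pass mRNA through the nuclear pore, help ribosomes to scan, or hold mRNA in repressed granules. Ddx3x itself is such a helicase and assists translation initiation on structured mRNAs. In the assay, a lysate is spun through a sucrose gradient, where RNA with 1 ribosome (monosome) parts from RNA with several (polysome), and the input is taken before loading.

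Motif II, the stretch that binds ATP and magnesium, gives the families their names, and its codons were found in 49 of the 51 coding sequences. A sequence is shown for the 4 pairs of close paralogs and for 4 members on which the results below turn, since it shows both how a member is recognised and how alike paralogs are to a short read. Each run is 42 bases of coding exon in mouse GRCm38, from GENCODE M21 transcripts, with the 4 codons of motif II in capitals.
Ddx5, chr11:106785178-106785219, minus strand: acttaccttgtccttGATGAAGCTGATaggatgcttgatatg
Ddx17, chr15:79538860-79538901, minus strand: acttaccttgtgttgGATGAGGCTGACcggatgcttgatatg
Ddx21, chr10:62591866-62591907, minus strand: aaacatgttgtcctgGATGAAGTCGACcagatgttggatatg
Ddx50, chr10:62640496-62640537, minus strand: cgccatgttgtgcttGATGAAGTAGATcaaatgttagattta
Ddx19a, chr8:110979071-110979112, minus strand: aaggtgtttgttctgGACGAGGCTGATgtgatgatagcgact
Ddx19b, chr8:111011320-111011361, minus strand: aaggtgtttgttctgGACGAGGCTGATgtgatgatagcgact
Ddx39, chr8:83721095-83721136, plus strand: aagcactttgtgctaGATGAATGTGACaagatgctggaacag
Ddx39b, chr17:35247075-35247116, plus strand: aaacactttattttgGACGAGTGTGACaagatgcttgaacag
Dhx9, chr1:153468874-153468915, minus strand: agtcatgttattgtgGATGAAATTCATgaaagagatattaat
Dhx36, chr3:62493839-62493880, minus strand: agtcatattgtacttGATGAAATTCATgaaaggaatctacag
Dhx8, chr11:101752125-101752166, plus strand: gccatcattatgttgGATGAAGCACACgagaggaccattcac
Ddx41, chr13:55533041-55533082, minus strand: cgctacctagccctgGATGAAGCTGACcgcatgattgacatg

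Of the Ddx genes, 26 spell DEAD in the one-letter code, 3 spell DEVD (Ddx21, Ddx28 and Ddx50) and 2 spell DECD (Ddx39 and Ddx39b). Ddx11 spells DEAH, Ddx58 DECH and Ddx60 DEVH. Of the Dhx genes, 8 spell DEAH, 4 spell DEVH and 2 spell DEIH (Dhx9 and Dhx36), and Dhx58 spells DECH. The windows of Ddx19a and Ddx19b are the same in every base, so these bases alone cannot tell the genes apart. A read is longer than the window and has a mate, so whether reads from there could be placed was not tested. Of all stretches of 50 bases, the length of a read, 33.3% in the Ddx19a transcript and 27.2% in that of Ddx19b also occur in another gene. That share was 62.7% for Ddx18, 22.7% for Ddx5 and 17.3% for Ddx50, which share them mostly with the predicted genes Gm16433, Gm12183 and Gm8228. The values of these 5 genes are uncertain to the extent that the counting split reads from such shared stretches. Another gene on the same strand overlapped 10 members, and in 2 over more than 10% of the span, Ddx24 (17.4%) and Ddx6 (10.3%). What that overlap did to their counts was not tested.

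Libraries held 36999365 to 57935512 read pairs counted in genes. The dorsal cortex marker list was present in every library, with 7 of its 8 genes read. In input it summed to between 1508 and 2069 CPM (counts scaled to library totals adjusted by the trimmed mean of M-values, TMM). Sox2 was listed at 0 throughout, and the cause of that was not tested. Ddx3x, the targeted gene, was at 281, 284 and 344 CPM in the monosome fraction of LoF controls and at 178, 198 and 255 in that of cHet, with no overlap, while in LoF input and polysomes the genotypes overlapped. In the T532M cross it was at 50.1, 144.9 and 110.8 CPM in control and 235.5, 198.2 and 166.5 in cHet input, and at 3047, 3466 and 2268 against 4117, 5860 and 5261 in polysomes, above controls in both, and overlapped in monosomes. Several inputs stood apart. Ttr, a choroid plexus gene, reached 160 and 183 CPM in LoF control inputs 1 and 3, 39.3 in LoF cHet input 1 and 177 in T532M cHet input 1, and was at most 2.25 CPM in the other 8 inputs. LoF cHet input 1 also had the lowest share of read pairs in the 51 genes, 0.396%, against 0.511% in the highest input.

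All 51 members were counted above the low-count filter in the LoF cross and 50 in the T532M cross, where the germline gene Ddx43 was not tested. Together they took 0.396 to 0.511% of read pairs in input and 0.449 to 0.608% in the monosome fraction. In the polysome fraction they took 1.25 to 1.51%, above every library of the other fractions. Per kilobase of transcript, the most abundant in LoF control input were Ddx39b at 163 CPM per kb, which packages mRNA for export and loads the U2 snRNP, and Ddx5 at 160, a coactivator that also acts in splicing. Ddx17 (81.8), Dhx15 (59.0) and Ddx6 (56.0) followed. The counts take in introns and the transcript length does not, so this order may depend in part on intron reads. In the LoF control polysome fraction Ddx5 led at 1363 CPM per kb, ahead of Dhx9 at 484, Dhx15 at 417 and Ddx17 at 394. At the other end, Ddx60, Ddx43, Ddx4 and Dhx58 stayed below 2 CPM in every library.

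Most members' mRNAs were enriched in the polysome over the monosome fraction. In LoF controls, 45 of 51 members were higher in polysome than in monosome RNA and 0 were lower, whereas 36.4% of all tested genes were higher and 44.9% lower (edgeR quasi-likelihood test, adjusted p under 0.05). In T532M controls, 44 of 50 were higher and 0 lower, beside 36% and 43.9% of all genes. The members' median log2 difference was 1.81 in LoF and 1.80 in T532M controls, against -0.31 for all genes in both. An unadjusted p under 0.05 was met by 45 and 44 members (82.1% and 81.1% of all genes). DESeq2 also called 45 and 44 higher and 0 lower, and its shares of all genes are not given. These differences say where a member's mRNA was enriched compared with other mRNAs, not how much of it carried ribosomes, and their zero depends on the scaling. By plain library totals in place of TMM scaling, the median of all genes moved to -1.13 in LoF and -1.28 in T532M controls and the members' median to 1.00 and 0.82. Then 40 of 51 and 37 of 50 members were above 0, beside 31.1% and 28.7% of all genes. Ddx4, Ddx19b, Ddx25, Ddx41, Ddx47, Ddx50, Ddx51, Ddx59, Dhx32, Dhx34 and Dhx58 were then below 0 in both crosses, and Ddx17 and Ddx55 in T532M controls only. Of the calls by TMM scaling, 6 in LoF and 8 in T532M controls were thus of members that lay below 0 by plain totals.

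**Figure D1:**
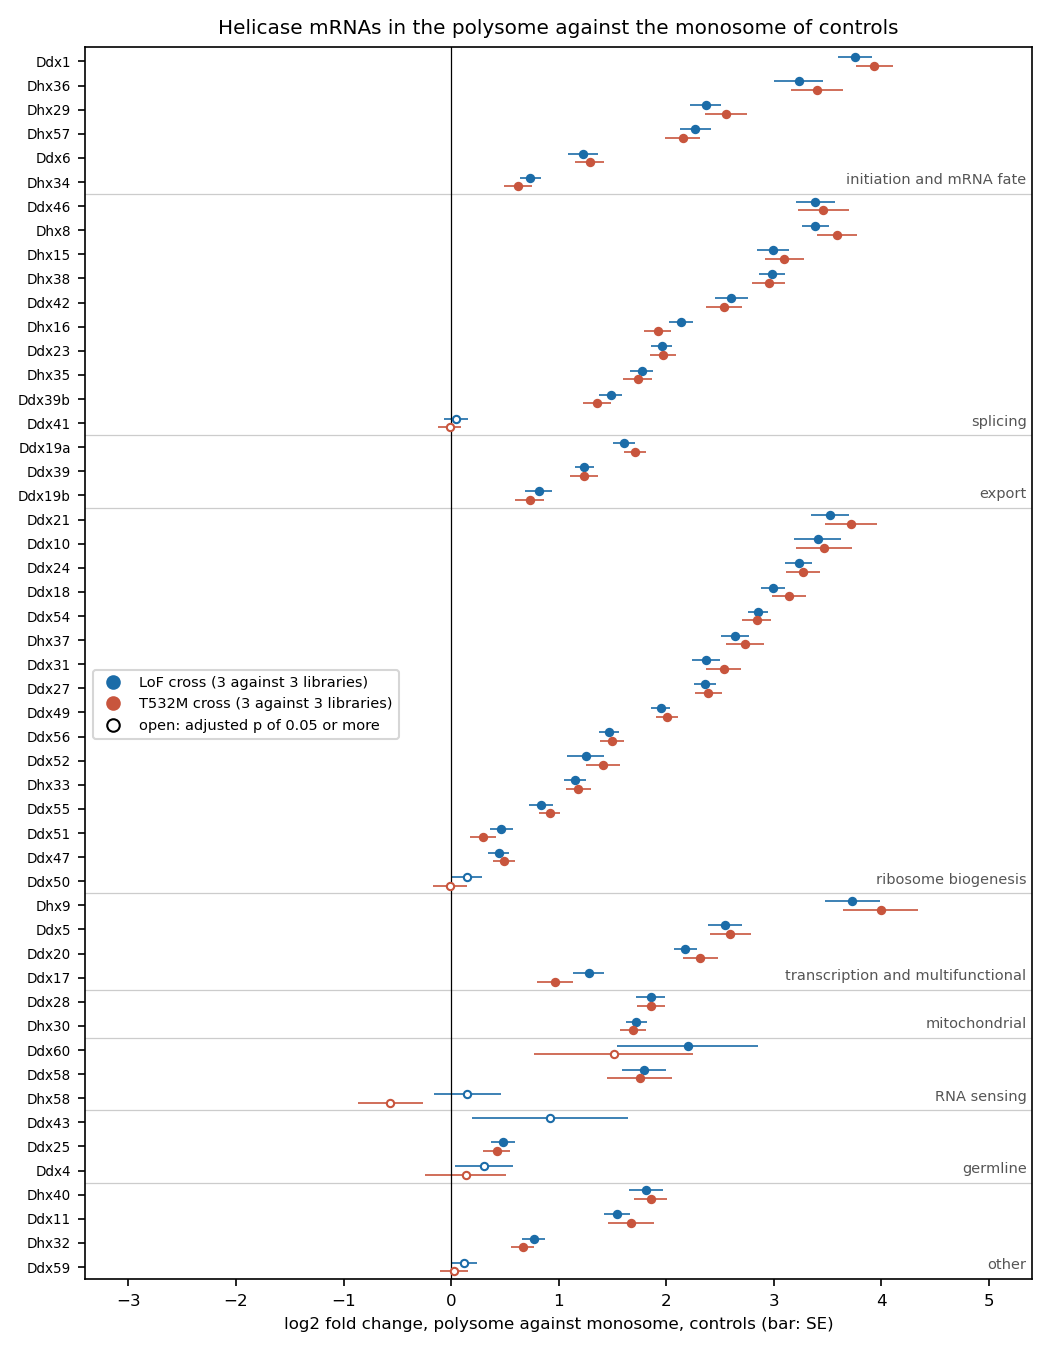
Log2 difference between polysome and monosome RNA (x axis) for each member, grouped by role, in controls of the LoF and T532M crosses by TMM scaling, with bars of 1 SE; open symbols did not pass an adjusted p of 0.05. Most members sit between 1 and 4 on the log2 scale, while Ddx41, Ddx59 and Ddx50 sit near 0. By plain library totals 11 of 51 members in LoF and 13 of 50 in T532M controls lie below 0.

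Among the 6 genes of initiation and mRNA fate, all 6 were higher on polysomes in both crosses (Dhx34 by TMM scaling only), with medians of 2.32 and 2.35. Ddx1, which takes part in tRNA ligation and RNA transport, was at 56.3, 67.6 and 58.7 CPM in LoF control monosomes and at 887, 739 and 839 CPM in polysomes. T532M controls gave 55.4, 56.2 and 61.5 CPM against 904, 1014 and 729. The libraries of the 2 fractions lay far apart in both crosses. The log2 difference was 3.76 (SE 0.156, edgeR adjusted p = 5.61e-14) and 3.94 (SE 0.173, adjusted p = 4.256e-13).

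Dhx36, which unfolds G-quadruplexes in RNA, stood at 75.1, 87.2 and 72.4 CPM in LoF control monosomes and at 776, 613 and 813 in polysomes, a log2 difference of 3.23 (SE 0.227). Ddx6, which represses mRNAs in processing bodies, stood at 384, 501 and 392 CPM in monosomes and at 997, 935 and 1052 in polysomes, a smaller difference of 1.23 (SE 0.143, edgeR adjusted p = 1.72e-07). Neither gene overlapped between fractions, and in T532M controls the differences were 3.40 and 1.29. The remaining log2 differences in LoF controls were 2.37 for Dhx29, which helps the small subunit to scan structured leaders, 2.27 for Dhx57 and 0.74 for Dhx34, a factor of nonsense-mediated decay.

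Of the 10 splicing helicases, 9 were higher on polysomes in each cross, with medians of 2.37 and 2.25. Ddx46 (Prp5 in yeast) had a log2 difference of 3.39 in LoF controls, Dhx8 (Prp22) 3.38, Dhx15 (Prp43) 2.99 and Dhx38 (Prp16) 2.98. Dhx15, the most abundant of them per kb on polysomes, went from 151, 168 and 155 CPM in LoF control monosomes to 1307, 1110 and 1346 in polysomes. Ddx41, which acts late in splicing and senses foreign DNA, was the exception. It stood at 22.6, 24.2 and 21.6 CPM in LoF control monosomes and at 20.8, 25.7 and 23.97 in polysomes. T532M controls gave 20.1, 22.8 and 23.1 CPM against 20.4, 22.1 and 22.9, so the fractions overlapped in both crosses. Its log2 difference was 0.04 (SE 0.113, edgeR adjusted p = 0.731) and -0.01 (SE 0.108, adjusted p = 0.9078), a sign that differed between crosses and settings.

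All 3 export helicases were higher on polysomes in both crosses (Ddx19b by TMM scaling only), with a median of 1.24 in each. Ddx19a, which releases mRNA at the cytoplasmic face of the pore, had log2 differences of 1.61 and 1.71, and its copy Ddx19b 0.81 and 0.73. Ddx39, also called Ddx39a, had 1.24 and 1.24.

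Of the 16 ribosome biogenesis genes, 15 were higher on polysomes in both crosses (Ddx47 and Ddx51, and Ddx55 in T532M controls, by TMM scaling only), with medians of 2.15 and 2.20. Ddx21, which links rRNA transcription with processing, stood at 63.7, 77.7 and 73.9 CPM in LoF control monosomes and at 879, 674 and 916 in polysomes, a log2 difference of 3.52 (SE 0.178, edgeR adjusted p = 7.881e-13). Ddx10 and Ddx24, which act on pre-ribosomes, had 3.41 and 3.23. At the low end were Ddx47 with 0.44 and Ddx51 with 0.47 in LoF controls and 0.49 and 0.30 in T532M controls, all past the threshold. In T532M controls the call of Ddx51 was lost without monosome replicate 1 or 2, without polysome replicate 1 or 2 and without the low-count filter. In LoF controls the calls of Ddx47 and Ddx51 were lost without the replicates that held over 10 CPM of Ttr in input. That left 1 control library per fraction, so nothing about Ttr is read from the lost calls.

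Ddx50, the nucleolar paralog of Ddx21 and its neighbour on chromosome 10, was the ribosome biogenesis gene that was not called. It stood at 110, 124 and 113 CPM in LoF control monosomes and at 134, 123 and 126 in polysomes. T532M controls gave 120, 120 and 125 against 120, 119 and 123. The fractions overlapped, and the log2 difference was 0.14 (SE 0.145, edgeR adjusted p = 0.3642) and -0.01 (SE 0.154, adjusted p = 0.9482).

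All 4 genes of transcription or many tasks were higher on polysomes in both crosses (Ddx17 in T532M controls by TMM scaling only). Dhx9, which unwinds structured RNA in transcription and translation, stood at 155, 192 and 158 CPM in LoF control monosomes and at 2291, 1641 and 2764 in polysomes. The T532M controls had 158, 163 and 177 CPM against 2979, 3512 and 1429, so the polysome libraries were widely spread but did not meet those of monosomes. Its log2 difference was 3.73 (SE 0.258) and 3.99 (SE 0.346, edgeR adjusted p = 4.655e-09). Ddx5 went from 798, 859 and 840 CPM in LoF control monosomes to 5133, 4311 and 5104 in polysomes, a log2 difference of 2.54 (SE 0.159, edgeR adjusted p = 1.623e-11). Ddx17 stayed closer together, with 744, 828 and 734 CPM against 1877, 1723 and 1989. Its log2 difference was 1.28 (SE 0.145) in LoF and 0.97 (SE 0.164) in T532M controls.

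**Figure D2:**
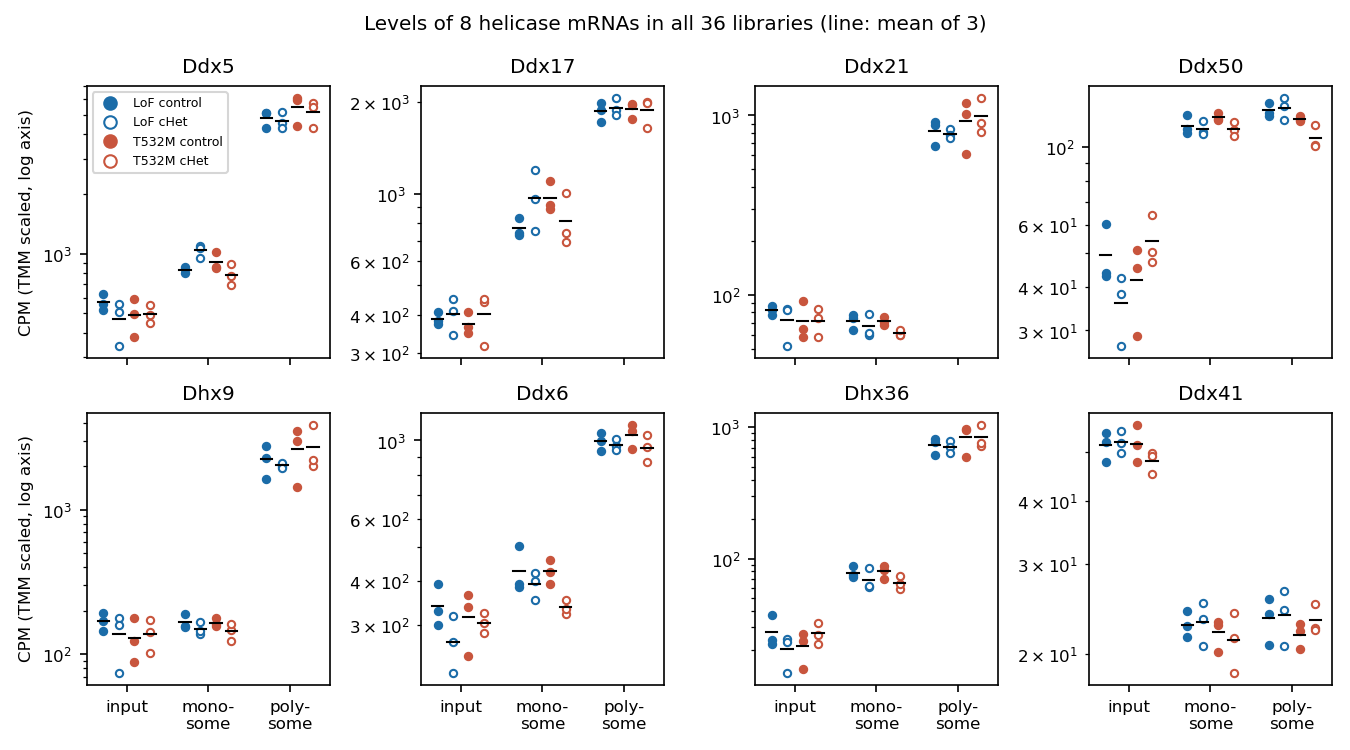
CPM on a log axis of 8 members in all 36 libraries, by cross, genotype and fraction; points are libraries and lines the mean of 3. Ddx5, Ddx21, Dhx9 and Dhx36 step up by far in polysomes, Ddx50 is as high in monosomes as in polysomes, and Ddx41 is highest in input.

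Both mitochondrial helicases were higher on polysomes, Dhx30 with log2 differences of 1.72 and 1.69 and Ddx28 with 1.86 in each cross. Of the sensors, Ddx58 (RIG-I) was higher in both, 1.79 and 1.75, from 2.87, 2.31 and 3.52 CPM in LoF control monosomes to 10.5, 8.41 and 11.3 in polysomes. Ddx60 was called in LoF controls (2.20, edgeR adjusted p = 0.004928) and not in T532M controls (1.51, adjusted p = 0.06852), at under 1 CPM in every library. Dhx58 gave 0.15 and -0.57 and was called in neither. Of the germline genes, Ddx25 was higher in both by TMM scaling only (0.48 and 0.42), Ddx4 was called in neither (0.31 and 0.14), and Ddx43 was not called in LoF controls (0.92). Among the other 4, Dhx40, Ddx11 and Dhx32 were higher in both, at 1.82, 1.54 and 0.77 in LoF controls (Dhx32 by TMM scaling only), and Ddx59, mutated in a ciliary disorder, gave 0.12 (SE 0.118) and 0.03 (SE 0.127).

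Members with longer proteins tended to sit further towards polysomes. Over the 47 members with a mean of at least 2 CPM, protein length and the log2 difference had a Pearson r of 0.54 and a Spearman rho of 0.57 in LoF controls, and 0.52 and 0.56 in T532M controls. These are correlations across genes that share libraries, given as a description. The length of the 3' untranslated part gave a rho of 0.06 in both. Over all 11660 genes of that level in LoF controls, the coding length gave a rho of 0.66. Among genes whose coding region was within the members' range, 1281 to 4164 bases, 67.2% of 5850 were higher on polysomes in LoF controls, with a median of 1.05. The members of that level had 93.6% and a median of 1.86. In T532M controls the shares were 66.4% of 5782 genes and 93.6%, with medians of 1.05 and 1.86. Dhx34, with 1145 codons, lay low for its length at 0.74, and Ddx1, with 740 codons, lay high at 3.76.

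**Figure D3:**
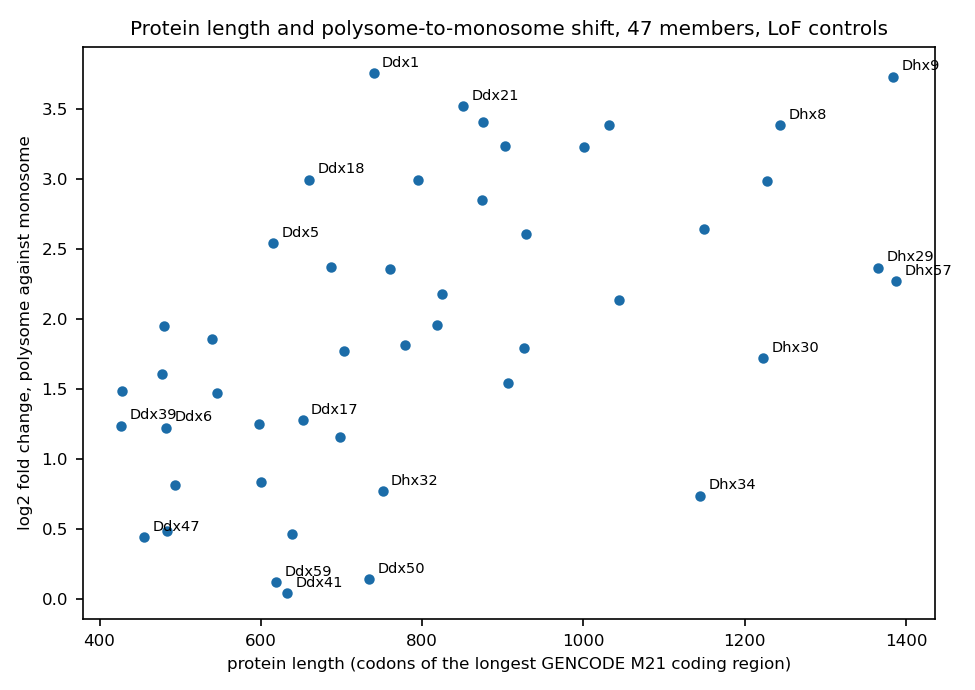
Protein length in codons (x axis) against the log2 difference between polysome and monosome RNA in LoF controls (y axis) for the 47 members with a mean of at least 2 CPM, 1 point each. Longer members lie higher, with a Spearman rho of 0.57, and Ddx1 and Dhx34 lie farthest from that trend.

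Close paralogs were compared by the log2 ratio of their CPM within each library, which cancels depth and scaling. The ratio is not corrected for gene length, so only its change between fractions is read. Over the 6 control libraries of a fraction, the ratio of Ddx5 to Ddx17 was 0.01 ± 0.21 in monosomes and 1.45 ± 0.14 in polysomes (SD, n = 6). The ratio rose by 1.44 (exact two-sided permutation test, p = 0.002165, the smallest it can give; adjusted p = 0.002886 over the 4 pairs). The ratio of Ddx21 to Ddx50 went from -0.73 ± 0.10 in monosomes to 2.79 ± 0.38 in polysomes (SD, n = 6), a difference of 3.52 with the same exact permutation p. The ranges of the 2 fractions lay apart for both pairs, so the paralogs parted between monosomes and polysomes.

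The ratio of Ddx19a to Ddx19b rose from 0.29 ± 0.12 to 1.18 ± 0.09 (SD, n = 6), a difference of 0.89 with that exact permutation p too. That of Ddx39 to Ddx39b moved little, from -3.15 ± 0.12 to -3.34 ± 0.11 (SD, n = 6), a difference of -0.19 (exact permutation p = 0.03247, also after adjustment). The differences had the same sign in each cross: 1.26 and 1.62 for Ddx5 to Ddx17, 3.37 and 3.68 for Ddx21 to Ddx50, 0.80 and 0.98 for Ddx19a to Ddx19b, -0.25 and -0.13 for Ddx39 to Ddx39b. The monosome and polysome libraries of a pool are not independent, and the test treats them as if they were.

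Against input, the polysome fraction was richer in 43 of 51 members in LoF controls, where 36.5% of all genes were higher, and poorer in 6, where 42.8% were lower (edgeR, adjusted p under 0.05). In T532M controls 43 of 50 were higher, beside 36.6% of all genes, and 5 lower, beside 42.4%. By plain library totals 36 of 51 and 33 of 50 were above 0, beside 31.5% of all genes in each cross. Called higher but below 0 by those totals were Ddx19a, Ddx23, Ddx28, Ddx39b, Ddx49, Ddx51, Ddx56 and Dhx34 in both crosses, and Ddx54 and Dhx16 in T532M controls. The largest rises at 2 CPM or more in LoF and T532M controls were those of Ddx10 (5.05 and 5.63), Dhx36 (4.72 and 5.29), Ddx46 (4.46 and 4.98), Dhx9 (3.72 and 4.34), Ddx21 (3.33 and 3.70) and Ddx5 (3.09 and 3.49). Ddx10 was at 6.90, 3.75 and 3.13 CPM in LoF control input and at 159, 135 and 162 in polysomes. Input counts take in introns of unspliced RNA, and its part in these rises was not tested.

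Ddx41, Ddx47, Ddx59, Ddx25 and Dhx32 fell from input to polysomes in both crosses, by 1.13, 0.74, 0.66, 0.58 and 0.26 on the log2 scale in LoF controls. Ddx41 was at 47.7, 54.4 and 52.2 CPM in LoF control input, above each of its monosome and polysome libraries. Ddx39 fell by 0.23 in LoF controls (edgeR adjusted p = 0.02131). In the LoF cross the calls of Ddx39 and Dhx32 were lost under DESeq2.

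Monosomes differed from input in both directions. In LoF controls 11 of 51 members were higher and 24 lower, beside 32.2% and 30.6% of all genes, and in T532M controls 15 of 50 were higher and 24 lower, beside 32.1% and 31% (edgeR, adjusted p under 0.05). The largest falls at 2 CPM or more in LoF and T532M controls were those of Ddx54 (-1.80 and -1.95), Ddx39 (-1.47 in each), Ddx49 (-1.27 and -1.31), Ddx47 (-1.18 and -1.31), Ddx41 (-1.17 and -1.23) and Ddx23 (-1.16 and -1.21). The largest rises at 2 CPM or more were those of Ddx10 (1.64 and 2.16), Dhx36 (1.49 and 1.89), Ddx50 (1.23 and 1.54), Ddx46 (1.08 and 1.52) and Ddx17 (0.99 and 1.38). Of the splicing helicases, 7 of 10 fell in each cross. Ddx54, which matures the large subunit rRNA, went from 71.7, 75.5 and 78.4 CPM in LoF control input to 20.8, 22.7 and 21.3 in monosomes and to 162, 150 and 156 in polysomes.

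The design then asks whether loss or mutation of Ddx3x moved the other helicases. In the LoF cross 0 of 51 members were called between cHet and controls in input, monosome or polysome RNA, where 0.0%, 0.0108% and 0.0% of all genes were called (edgeR, adjusted p under 0.05). In the T532M cross 0 of 50 were called in any fraction, where the shares of all genes were 0.00548%, 1.03% and 0.0%. DESeq2 called 0 members in 5 of the 6 comparisons and Ddx49 alone in T532M monosomes, where its share of all genes called is not given. An unadjusted p under 0.05 was met in LoF input by 7 members (10.8% of all genes), in monosomes by 2 (4.2%) and in polysomes by 0 (3.23%). In the T532M cross these were 3 in input (10.7%), 3 in monosomes (11.8%) and 1 in polysomes (7.92%). In these bulk samples fewer cells of a type and less RNA per cell cannot be told apart, and a difference that was not called is not shown to be absent.

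**Figure D4:**
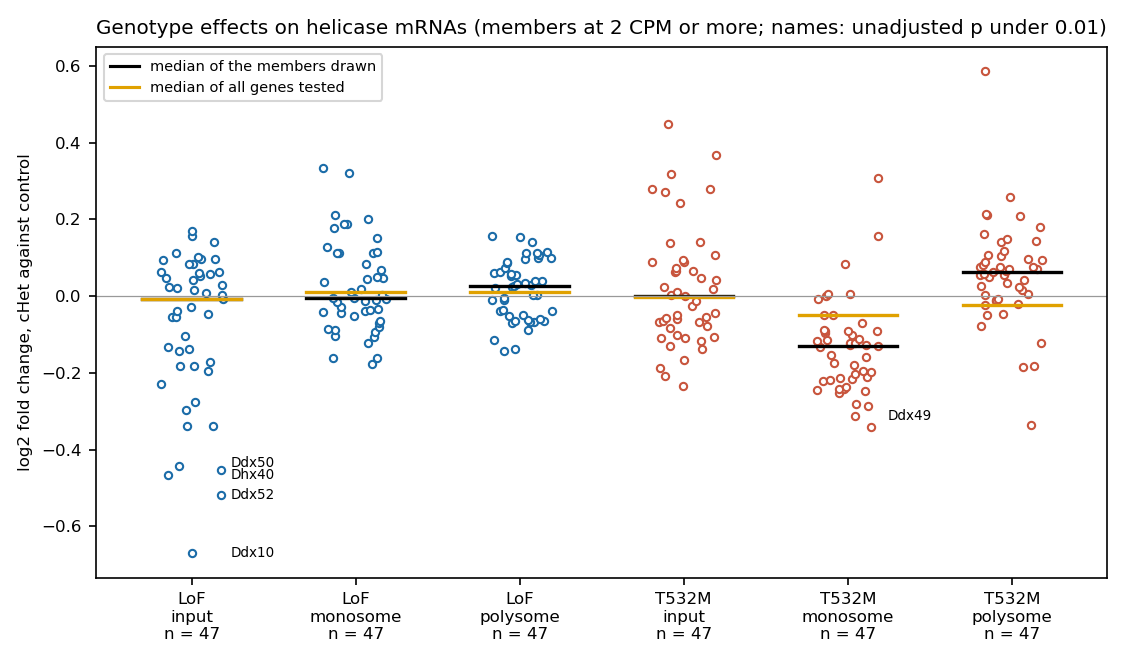
Log2 difference between cHet and controls (y axis) for 47 members in each cross and fraction, 1 point each; the black line is the members' median and the yellow line that of all genes. Names mark members with an unadjusted p under 0.01, which are Ddx10, Ddx50, Ddx52 and Dhx40 in LoF input and Ddx49 in T532M monosomes, and none passed the adjusted threshold.

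In LoF input the 7 members at an unadjusted p under 0.05 were Ddx50, Ddx52, Dhx40, Ddx10, Ddx1, Ddx6 and Ddx43, all lower in cHet. Ddx50 was at 60.5, 43.03 and 43.8 CPM in LoF controls and at 27.1, 42.5 and 38.2 in cHet, with no overlap, a log2 difference of -0.45 (SE 0.146, edgeR adjusted p = 0.2707). Ddx10, Ddx52, a ribosome biogenesis gene, and Dhx40 gave -0.67, -0.52 and -0.47, with adjusted p of 0.278, 0.2737 and 0.2737 (edgeR) and overlapping groups. The highest control was replicate 1 for all 4 genes, and the lowest cHet was replicate 1 for all 4. Without LoF control replicate 1 the difference of Ddx50 was -0.27, and without LoF cHet replicate 1 it was -0.27 (edgeR adjusted p = 1 and 0.891). It was -0.08 without the replicates that held over 10 CPM of Ttr, which left 1 control. Without LoF cHet replicate 2, by contrast, Ddx50, Ddx52 and Dhx40 passed, with edgeR adjusted p of 0.0469, 0.0393 and 0.0372. The share of all genes called in that fit is not given, so the calls are not read as particular to the members.

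Other measures were read in the same inputs. A gene model on ribosomal RNA, CT010467.1, was at 4619, 13910 and 11480 CPM in LoF control input and at 37570, 37070 and 44580 in cHet, with no overlap. The 10 genes of the choroid plexus and cortical hem list summed to 28.9 to 235 CPM in control and to 15.4 to 63.0 in cHet input, which overlapped, and each gene was read. The counted length of a gene had a Spearman rho of -0.48 with the LoF input difference over 47 members, and of -0.35 over all 12064 genes of that level. In T532M input both had the opposite sign, 0.49 and 0.31. The part of these measures in the members' differences was not tested.

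In T532M input Ddx50 was at 28.98, 51.1 and 45.2 CPM in controls and at 64.0, 50.4 and 47.2 in cHet, a log2 difference of 0.37 (edgeR adjusted p = 0.4255). T532M control replicate 1 was the low library and cHet replicate 1, with 177 CPM of Ttr, the high one. The LoF difference less the T532M difference in input was -0.84 for Ddx50 (SE 0.226, edgeR adjusted p = 0.07071), -0.76 for Dhx40 (adjusted p = 0.08545) and 0.37 for Ddx49 (adjusted p = 0.09448) by edgeR on all 36 libraries. In that fit 0 of 51 members were called in input, monosome or polysome RNA, beside 0.0105%, 0.0% and 0.0% of all genes. The unadjusted threshold was met by 8 members in input, 6 in monosomes and 0 in polysomes, beside 15.9%, 6.69% and 5.59% of all genes. DESeq2 called 3 members in input, Ddx49, Ddx50 and Dhx40. The share of all genes called is not given for DESeq2 or for the fits with a library left out. These calls are therefore not read as particular to the members. With 1 library left out, Ddx50 and Dhx40 passed in edgeR without LoF control replicate 2, LoF cHet replicate 2, T532M control replicate 2 or T532M cHet replicate 3. Without the replicates high in Ttr, which left 1 LoF control, the difference was -0.31 for Ddx50, -0.27 for Dhx40 and 0.25 for Ddx49. Ddx49 was at 38.98, 42.2 and 40.1 CPM in LoF control input and 44.7, 44.5 and 46.2 in cHet, and at 45.1, 40.2 and 37.4 CPM in T532M control input and 30.3, 36.96 and 37.1 in cHet. It was thus higher in every LoF cHet and lower in every T532M cHet than in the controls of its cross.

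**Figure D5:**
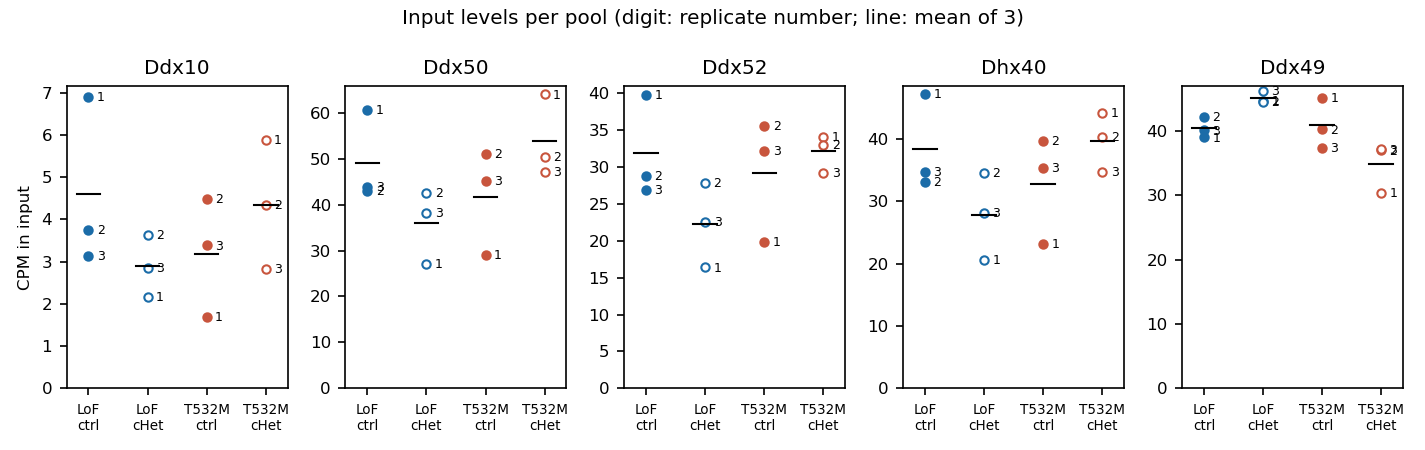
Input CPM of Ddx10, Ddx50, Ddx52, Dhx40 and Ddx49 (y axis) in each library by cross and genotype; digits are replicate numbers. Replicate 1 is the highest LoF control and the lowest LoF cHet for Ddx10, Ddx50, Ddx52 and Dhx40, and not for Ddx49.

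In LoF monosomes the 2 lowest p were those of Ddx17 and Ddx5. Ddx5 was at 798, 859 and 840 CPM in controls and at 1100, 1064 and 956 in cHet, with no overlap, a log2 difference of 0.32 (SE 0.15, edgeR adjusted p = 0.9997). Ddx17 gave 0.33 with the same adjusted p, from 744, 828 and 734 CPM to 1192, 754 and 959, which overlapped. In the same libraries the 6 genes of the erythroid list, each of them read, summed to 532.3 to 553.1 CPM in controls and to 221 to 468 in cHet, with no overlap. The part of red cell RNA in these differences was not tested. In LoF polysomes Ddx5 differed by -0.05 (SE 0.15), Dhx9 by -0.14 (SE 0.231), Ddx6 by -0.04 (SE 0.14), Dhx36 by -0.04 (SE 0.208) and Dhx29 by -0.05 (SE 0.137). The lowest p there belonged to Ddx39 (0.15), Ddx56 (0.16) and Ddx47 (0.14), each at an edgeR adjusted p of 1. Without overlap 5 members were higher in LoF cHet polysomes, Ddx27, Ddx39, Ddx39b, Ddx49 and Ddx56, beside 4.16% of all genes.

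T532M monosomes leaned down. There 7 of 50 members had a positive difference, where 42.8% of all genes did, and the median was -0.13 against -0.05 for all genes. The members took 0.547, 0.587 and 0.546% of read pairs in control and 0.449, 0.533 and 0.476% in cHet monosomes, with no overlap. Without overlap 12 of 50 were lower in cHet, beside 12.7% of all genes. Ddx49, a ribosome biogenesis gene, was at 16.2, 16.1 and 17.1 CPM in controls and at 13.6, 13.6 and 12.6 in cHet, a log2 difference of -0.31 (SE 0.0999, edgeR adjusted p = 0.1908). Ddx6 was at 425, 393 and 458 CPM in controls and at 321, 333 and 354 in cHet, a difference of -0.34 (SE 0.136, edgeR adjusted p = 0.3267). Ddx19a went from 34.7, 35.1 and 37.98 CPM to 31.9, 30.02 and 28.9, a difference of -0.25 (edgeR adjusted p = 0.3636). None of the 3 overlapped between genotypes, and none passed. With the replicate block on these 6 libraries 0 of 49 members were called. In that fit 710 of 17187 genes were called higher and 166 lower, against 178 and 10 in the fit of 18 libraries. These fits differ in the libraries used as well as in the block, so the rise is not read as an effect of the block. The block takes libraries of 1 number as pairs, which was inferred from these same data and is not given by the labels.

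In the same monosome libraries CT010467.1 was at 3409, 4212 and 4399 CPM in controls and at 4654, 5160 and 7173 in cHet. Neurod6, a gene of excitatory neurons, was at 706, 588 and 667 CPM in controls and 554, 539 and 566 in cHet. The dorsal cortex list as a whole, 8 genes with Sox2 at 0, summed to 1451 to 1584 CPM in controls and 1299 to 1529 in cHet. The part of these shifts in the members' lower monosome values was not tested.

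In T532M polysomes 37 of 50 members had a positive difference, beside 45.7% of all genes, with a median of 0.06 against -0.02. The lowest p were those of Ddx25 (-0.34, edgeR adjusted p = 0.5502), Dhx35 (0.26) and Ddx58 (0.59). Ddx5 differed by -0.08 (SE 0.179), Dhx9 by 0.03 (SE 0.306), Ddx6 by -0.12 (SE 0.136), Dhx36 by -0.01 (SE 0.222) and Dhx29 by 0.08 (SE 0.186).

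Whether genotype shifted members between fractions was tested as a change of the genotype effect. In the LoF cross 0 of 51 members were called for monosome over input, polysome over input or polysome over monosome, beside 0.0%, 0.0108% and 0.0% of all genes. In the T532M cross 0 of 50 were called, beside 0.00548%, 0.0% and 0.0603% (edgeR, adjusted p under 0.05). Unadjusted p under 0.05 were met by 1, 5 and 1 members in the LoF cross (5.04%, 6.87% and 3.02% of all genes) and by 2, 3 and 2 in the T532M cross (5.91%, 6.1% and 6.85%). DESeq2 also called 0 in each. For polysome over monosome, 43 of 50 members had a positive change in the T532M cross, beside 51.9% of all genes, with a median of 0.23 against 0.02. In the LoF cross 31 of 51 did, beside 49.1%, with a median of 0.04 against -0.01. The lowest p in the T532M cross were those of Ddx49 (0.39, SE 0.14) and Dhx35 (0.50), both at an edgeR adjusted p of 0.5638. These changes use the same monosome libraries as the comparison above.

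By the adjusted p of the authors' deposited tables, 0 members were under 0.05 in any of the 6 columns. The header does not say against what the monosome and polysome columns were taken, so only the input columns are described. An adjusted p stood in the authors' deposited table for 48 of 51 members in LoF input and for all 49 members listed in T532M input. The smallest in input was 0.143 for Ddx10 in the LoF cross, with a log2 fold change of -0.64, and 0.193 for Ddx49 in the T532M cross, with -0.25.

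RNA helicases that carry no Ddx or Dhx symbol were read in the same way. Of 20 tested, 17 were higher and 2 lower on polysomes than in monosomes in controls of each cross, with medians of 1.98 and 2.17, beside 36.4% and 36% of all genes higher and 44.9% and 43.9% lower. By plain library totals 16 of 20 lay above 0 in each cross, and Supv3l1, called higher, lay below. Aqr, a helicase that binds introns in the spliceosome, had log2 differences of 3.91 and 4.00, and Upf1, the helicase of nonsense-mediated decay, 3.84 and 3.89. The initiation helicases Eif4a1 and Eif4a2 went in opposite directions, 1.06 and 1.27 against -0.99 and -0.92. Dqx1 was the other that fell, by 4.13 and 3.81. The 27 tested cofactors of the members included G-patch proteins that switch on DEAH helicases. Of these 27, 20 were higher and 4 lower in LoF controls, and 20 higher and 3 lower in T532M controls. By plain totals 17 lay above 0 in each cross, beside 31.1% and 28.7% of all genes. Alyref and Eif4enif1 in both crosses, Pinx1 in LoF and Gle1 in T532M controls were called higher but lay below 0. Tfip11, the cofactor of Dhx15, had 3.70 and 3.83, and Rbm17, a splicing factor, fell by 0.77 and 0.89. Between genotypes, within a fraction, 0 of the 20 helicases were called, and 1 cofactor, Rbm17, was higher in T532M cHet monosomes, by 0.48 (edgeR adjusted p = 0.02738). That call was lost without the low-count filter, under RLE scaling (adjusted p = 0.05065), without the replicates high in Ttr and with each library but T532M control replicate 2 left out in turn. The Rbm17 call was kept under DESeq2 (adjusted p = 0.0003483). In edgeR it was also kept with only the groups compared (adjusted p = 0.02388) and with the replicate block by number (adjusted p = 0.01338). Over these settings its difference lay between 0.43 and 0.54. Between crosses, 1 of the 20 helicases was called in input: Ifih1, the sensor MDA5, whose LoF difference less its T532M difference was -3.53 (SE 0.473, edgeR adjusted p = 0.0004468). It was at 0.455, 0.434 and 0.399 CPM in LoF control and 0.112, 0.102 and 0.221 in cHet input, and at 0.0798, 0.0853 and 0.0810 in T532M control and 0.397, 0.205 and 0.364 in cHet input. LoF controls thus lay above their cHet and T532M controls below theirs, all under 0.5 CPM. Without the replicates high in Ttr, which left 1 LoF control, the difference was -3.19, and no call is read from that fit.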

How the data were processed

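RNA of 36 libraries was sequenced as read pairs of 50 bp. The deposited values are raw counts per gene: per the file headers, the authors counted read pairs with featureCounts 2.0.3 over whole gene spans, introns included, on the reverse strand, with GENCODE M25 on GRCm38. STAR 2.7.11a, FastQC 0.11.7 and DESeq2 1.34.0 stand in the submitters' processing notes without settings. The authors' deposited tables hold log2 fold changes and adjusted p-values. The gradient ran from 15 to 50% sucrose in 12 fractions, and the sources used here do not give which of them were joined.

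Counts were tested with edgeR 4.0.16 in R 4.3.3 (limma 3.58.1), with TMM scaling, filterByExpr and quasi-likelihood tests on the 18 libraries and 6 groups of a cross, and on all 36 for the difference between crosses. P-values were adjusted by Benjamini-Hochberg over 18556 (LoF), 18243 (T532M) or 19121 genes, with a threshold of 0.05. Libraries were treated as independent, and the scripts were tested on simulated data. Their p-values reflect only how libraries of 1 group vary; litters are not given. Same-numbered control and cHet libraries deviated together in T532M monosomes (r 0.191 to 0.264 in 3 of 3 pairs). There the numbers were taken to pair them, which the labels do not say. Alternatives were DESeq2 1.42.0, RLE scaling, no filter, each library left out, only the groups compared, a replicate block and, chosen after seeing the data, the replicates with over 10 CPM of Ttr left out and, with no test, plain library totals.

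CPM use library totals scaled by TMM within a cross, and values per kb the length of the protein-coding GENCODE M21 transcript with the longest coding region. Named members are those past the threshold at 2 CPM or more with the 6 largest rises and falls or, where fewer than 5 pass, the 3 smallest p; the highest in each role; members of the rarer sign; the paralogs; and Ddx6, Dhx29, Dhx36 and Dhx9. Others named for not overlapping, for their length or for their low counts, and Ddx1, were chosen after their values were seen. The members, roles and lists were chosen with earlier results of these data known.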

Additional observations from a re-analysis of the deposited data

Results flagged for a closer look

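The effects of the 2 crosses on Ifih1, a sensor of viral RNA outside the Ddx and Dhx symbols, differed in input in the test of the difference itself, by -3.5289 on the log2 scale (edgeR adjusted p = 0.0004468). DESeq2 gave no adjusted p for it. With each input library left out in turn the difference stayed between -3.93 and -3.34 and past the threshold. Without the replicates high in Ttr, which left 1 LoF control, the difference was -3.19, and no call is read from that fit. Its input levels were under 0.5 CPM in all 12 libraries, and the cause was not tested.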

How the results depend on the processing

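Of the counts of called members, 362 of 372 values under other settings stayed within 1.5 times the main count or at 0. In LoF input, 4 members were called without the low-count filter (Ddx10, Ddx50, Ddx52 and Dhx40), and 0 to 3 with each library left out. In LoF monosomes 1 was called without the replicates high in Ttr (Dhx36, -0.52), which leaves 1 control and was chosen once the data were seen, and in T532M monosomes 1 under DESeq2 (Ddx49). The input difference between crosses gave 3 under DESeq2, 3 without the filter and 0 to 4 with a library left out (chosen after seeing the data). The share of all genes is not given for any of these genotype calls under other settings. They are therefore not read as particular to the members. Without the replicates high in Ttr, the LoF change of monosome over input was -0.0901 for Ddx50 and -0.1496 for Dhx40, against 0.2338 or more with any library left out for Ddx50. The polysome over monosome difference of Ddx41 in LoF controls lay between -0.0177 and 0.1298 with a library left out. In T532M controls it was 0.0487 under DESeq2, 0.0557 under RLE scaling and 0.003 with only the groups compared, and -0.0692 to 0.0425 with a library left out (0.0187 and 0.0299 without monosome replicates 2 and 3). That of Ddx50 was 0.0514, 0.0578 and 0.0056, and -0.0184 to 0.0173 with a library left out (0.0039 and 0.0093 without polysome replicates 1 and 2). The cause was not tested. DESeq2's scaling moved the median of all genes in that T532M comparison from -0.31 to -0.17. With the replicate block by number, Ddx50 in LoF input gave -0.45 (edgeR adjusted p = 0.8912) and 0 members were called between genotypes. For control and cHet libraries of 1 number, r was over 0.1 in 1 of 9 pairs in the LoF cross and 6 of 9 in the T532M cross, among them 3 of 3 in monosomes. Fractions of 1 genotype and number did so more (median r 0.32, over 0.1 in 28 of 36). A block by genotype and number left the LoF counts against input at 11 and 24 for monosomes and 43 and 6 for polysomes. Dhx57 was lost and Ddx58 gained in monosomes. In T532M controls that block gave 17 and 24 (Ddx11 and Dhx40 gained) and 43 and 6 (Ddx39 gained). The share of all genes called under that block is not given. Plain library totals moved 35 of 36 levels of leading members by over 1 SD, by factors of 0.629 to 1.272, down in polysomes and up in monosomes, and changed the sign of 0 called members between monosomes and input. Members under 2 CPM are limited by depth.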
